A study of Mus musculus with 37 samples.

Results

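Metallothioneins and antioxidant enzymes under the transcription factor NRF2 were followed as a set of 10 genes in RNA pulled down from podocyte ribosomes of diabetic and control mice. The 10 genes were taken by symbol from a table of 32108 genes: the metallothioneins Mt1 and Mt2, the NRF2-linked genes Nqo1, Hmox1, Gclc, Gclm, Txnrd1 and Srxn1, the superoxide dismutase Sod1 and the extracellular glutathione peroxidase Gpx3. All 10 were found, and all 10 passed the filter on low counts in each fit. Podocytes are epithelial cells whose foot processes cover the glomerular capillaries. TRAP, translating ribosome affinity purification, enriches the RNA held by tagged ribosomes of a chosen cell type, and the name of the deposited tables refers to podocin-Cre, a driver active in podocytes.

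The type 2 model compared eNOS-/- db/db mice, which lack endothelial nitric oxide synthase and carry the db mutation of the leptin receptor, with eNOS-/- mice at 3 and 6 months of age, so the eNOS deletion was shared by both arms. There were 5 diabetic and 5 control TRAP libraries at 3 months, and 3 diabetic and 4 control libraries at 6 months. The type 1 model compared mice given streptozotocin (STZ), a toxin of insulin-producing cells, with mice given none. Its libraries came 3 weeks after STZ at an age of 3 months (5 diabetic, 4 control) and 24 weeks after STZ at 8 months (5 diabetic, 5 control). All mice were labelled C57BL/6, and no eNOS genotype was given for the STZ model. In that model, effects of the drug and of diabetes cannot be told apart. A single library of total RNA, where the TRAP libraries are labelled polyA RNA, came from whole kidney at 3 months with the eNOS-/- genotype. The labels do not say whether libraries came from separate or pooled animals, and the p-values therefore cover only the variation among these libraries.

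Metallothioneins are small cysteine-rich proteins that bind zinc, copper and cadmium, and their genes are switched on by the zinc-sensing factor MTF1 and by glucocorticoids. NRF2, encoded by Nfe2l2, is held back by KEAP1. When oxidants or electrophiles modify KEAP1, NRF2 enters the nucleus, pairs with small MAF proteins and binds antioxidant response elements of genes for glutathione synthesis, the thioredoxin system, quinone reduction and haem breakdown. In the kidney, proximal tubule cells are a major source of the Gpx3 protein in plasma.

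Depth was 6702120 to 37786025 counts per TRAP library and 28033680 counts in the kidney library. Detected genes, those with any count, numbered 14320 to 21290 per TRAP library. In the STZ model at 3 weeks, 14320 genes were detected in diabetic library 4 and 18044 to 21050 in the other diabetic libraries, against 15558 to 16362 in the 4 control libraries. The podocyte gene Nphs1 stood at 1617 ± 363 CPM (SD, n = 5) in TRAP of eNOS-/- mice at 3 months and at 13.9 CPM in kidney, and all 10 podocyte markers were detected in each TRAP library. Markers of other cells were also present in TRAP: the 15 proximal tubule markers summed to 9976 to 14671 CPM in eNOS-/- controls at 3 months, where the podocyte markers summed to 22717 to 35587 CPM. No marker was at 0 in all TRAP libraries. The macrophage markers Adgre1, Cd68, Cd14 and Fcgr1 and the injury markers Lcn2, Krt20 and Sox9 were at 0 in some. CPM is the read count after scaling to effective library size. The Nphs1 values above and the other comparisons with kidney use plain CPM instead, scaled to the total counts of a library. In bulk libraries, fewer cells of a type and less RNA per cell cannot be told apart.

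Mt1 (ENSMUSG00000031765, chromosome 8, 94179089 to 94180325) and Mt2 (ENSMUSG00000031762, chromosome 8, 94172618 to 94173567) lie on the plus strand with 5521 bases between them, on GRCm38. Their coding sequences are shown because the genes are close relatives whose reads could be exchanged in counting. Both are 186 bases long. They differ at 38 positions, given here in capitals, and are identical at 79.6%. The sequences are those of GENCODE release M21:
Mt1: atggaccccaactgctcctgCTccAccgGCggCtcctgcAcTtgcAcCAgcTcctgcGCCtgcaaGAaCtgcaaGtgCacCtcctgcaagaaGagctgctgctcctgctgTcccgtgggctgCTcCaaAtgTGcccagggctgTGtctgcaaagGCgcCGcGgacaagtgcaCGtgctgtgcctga
Mt2: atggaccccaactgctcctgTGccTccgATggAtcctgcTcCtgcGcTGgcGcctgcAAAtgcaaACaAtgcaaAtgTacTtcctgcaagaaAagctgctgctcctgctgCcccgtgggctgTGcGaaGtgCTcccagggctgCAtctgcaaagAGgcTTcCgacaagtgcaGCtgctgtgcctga
The longest run of letters shared by the main transcripts was 20 bases, and no stretch of 50 bases was shared. Mt2 overlaps the antisense gene Gm45774, and no source used here says whether the counting was stranded, so reads of that pair cannot be told apart.

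The promoter windows of the pair, from RefSeq on GRCm38.p6, run from 250 bases before the start to 50 after it. They are shown since both genes were higher in the same comparisons. Capitals mark cores of the metal response element, TGCACNC or TGCGCNC on either strand, the sequence that MTF1 binds. The Mt1 window lies at chr8:94178839-94179138 and the Mt2 window at chr8:94172368-94172667, both on the plus strand:
Mt1 promoter: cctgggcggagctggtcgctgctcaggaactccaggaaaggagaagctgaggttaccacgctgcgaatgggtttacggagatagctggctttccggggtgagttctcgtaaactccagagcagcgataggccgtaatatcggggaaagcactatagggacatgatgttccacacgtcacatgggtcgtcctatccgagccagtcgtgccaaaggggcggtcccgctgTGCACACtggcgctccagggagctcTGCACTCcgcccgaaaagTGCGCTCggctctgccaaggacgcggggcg
Mt2 promoter: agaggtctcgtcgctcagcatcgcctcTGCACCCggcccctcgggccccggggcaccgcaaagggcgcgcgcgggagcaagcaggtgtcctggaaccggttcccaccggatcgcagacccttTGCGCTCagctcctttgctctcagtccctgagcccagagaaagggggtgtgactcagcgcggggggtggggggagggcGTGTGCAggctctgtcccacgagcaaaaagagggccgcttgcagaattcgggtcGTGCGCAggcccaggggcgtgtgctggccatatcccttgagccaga
Mt1 had 3 cores and Mt2 had 4. Gclm, which was called lower in the type 2 model, also had 3, and Srxn1 had 1. The windows of Nqo1, Txnrd1, Sod1 and Gpx3 held no core. Of the Mt1 cores only the first lies before the annotated start, and the others lie after it. Of the Mt2 cores only the last lies after the start. Whether the annotated starts are those used in these cells was not tested. Of 32851 promoter windows of this length, 25.7% held at least 1 core, 1.97% at least 3 and 0.517% at least 4. The antioxidant response element, searched as TGACNNNGC on either strand, was in the windows of Mt2, Gclm, Txnrd1, Srxn1 and Sod1, which is 5 of the 8 members matched in the table, and in 12.4% of all windows. The Gclm match overlaps a metal response element core, and no other overlap of the 2 motifs was found. No match lay in the windows of Mt1, Nqo1 and Gpx3. Sequence outside the windows was not searched, so a gene without a match may still have the element nearby. The Gpx3 window lies 401 bases from the gene start in the deposited table. A match describes letters in a window and not a bound site. Other forms of the element were not searched. Srxn1 is the NRF2-linked gene that was called higher in most comparisons. In its window (chr2:152105274-152105573, plus strand) the match lies after the start, not before it, and is shown in capitals:
Srxn1 promoter: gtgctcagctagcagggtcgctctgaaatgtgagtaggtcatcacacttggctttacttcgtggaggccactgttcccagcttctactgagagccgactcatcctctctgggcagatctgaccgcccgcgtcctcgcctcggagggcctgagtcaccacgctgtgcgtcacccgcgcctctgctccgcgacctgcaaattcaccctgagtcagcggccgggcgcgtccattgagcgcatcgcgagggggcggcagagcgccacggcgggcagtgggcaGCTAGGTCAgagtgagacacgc

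Both metallothioneins were higher in diabetic podocyte libraries in the type 2 model at both ages and in the STZ model at 3 weeks. At 3 months, Mt1 stood at 118, 166, 228, 143 and 189 CPM in eNOS-/- db/db libraries and at 41.3, 49.7, 62.7, 41.6 and 44.9 CPM in eNOS-/- libraries. The groups did not overlap. The log2 change was 1.82 (SE 0.17, adjusted p = 3.98e-06), a 3.52-fold difference, and Mt1 ranked 5 by p among 17180 genes. Mt2 stood at 31.2, 38.4, 36.4, 62.0 and 65.7 CPM in diabetic and at 7.73, 12.5, 16.7, 8.67 and 11.7 CPM in control libraries. Its log2 change was 2.03 (SE 0.23, adjusted p = 2.57e-05), or 4.08-fold. Diabetic libraries 4 and 5 gave the highest Mt2 values, while Mt1 was highest in libraries 3 and 5. Libraries 4 and 5 also stood apart in their markers. Podocyte markers summed to 13304 and 15122 CPM there, against 23757 to 26314 CPM in diabetic libraries 1 to 3, macrophage markers to 281 and 149 CPM against 43.0 to 52.4 CPM, and injured tubule markers to 1234 and 659 CPM against 273 to 413 CPM. Mt1 and Mt2 stayed called without both libraries.

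At 6 months both genes were again higher. Mt1 stood at 132, 149.9 and 119 CPM in eNOS-/- db/db libraries, against 49.8, 68.3, 64.6 and 54.0 CPM in eNOS-/- libraries. The log2 change of Mt1 was 1.18 (SE 0.20, adjusted p = 0.000624). Mt2 stood at 40.5, 51.7 and 56.6 CPM in diabetic libraries, against 15.3, 13.7, 11.9 and 10.8 CPM in control libraries, a log2 change of 1.95 (SE 0.27, adjusted p = 0.000158). For both genes every diabetic library lay above every control library. Podocyte markers summed to 8425, 14499 and 2749 CPM in diabetic libraries 1, 2 and 3, against 25007 to 29138 CPM in controls. Macrophage markers summed to 165 to 268 CPM against 79.0 to 119 CPM. Diabetic library 3 also had the fewest counts, 6702120. Mt1 and Mt2 stayed called without it. The part of these marker shifts in the result was not tested. The change at 6 months minus that at 3 months was -0.63 for Mt1 (SE 0.26, adjusted p = 0.21) and -0.076 for Mt2 (SE 0.35, adjusted p = 0.923), so neither was called different between ages. Late minus early changes were called for 0 of 17180 genes in the type 2 model and 0 of 16279 in the STZ model by edgeR, with an unadjusted p under 0.05 for 18.9% and 6.71% of genes and for 2 and 0 members, and for 577 and 64 genes by DESeq2.

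After 3 weeks of STZ, Mt1 stood at 66.2, 91.4, 101, 112 and 106 CPM in diabetic libraries, against 62.8, 38.5, 46.9 and 48.9 CPM in libraries without STZ. The log2 change was 0.93 (SE 0.21, adjusted p = 0.0101), and the groups came close between diabetic library 1 and control library 1. Mt2 stood at 29.1, 37.9, 37.1, 55.7 and 44.7 CPM with STZ and at 6.79, 15.3, 19.1 and 12.6 CPM without, with a log2 change of 1.59 (SE 0.32, adjusted p = 0.00484). Diabetic libraries 1, 2 and 3 had podocyte marker sums of 9495 to 10490 CPM, below the 11259 to 23323 CPM of the controls, while libraries 4 and 5 had 22184 and 19720 CPM. With only libraries 4 and 5 in the diabetic group, a choice made after seeing the data, the log2 changes were 1.146 for Mt1 (adjusted p = 0.049) and 1.90 for Mt2 (adjusted p = 0.0352). With only 2 diabetic libraries, 94 genes were called in all, against 1058 with 5.

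At 24 weeks the metallothioneins were not called. Mt1 stood at 109.7, 137, 145, 135 and 125 CPM with STZ and at 137, 52.2, 76.4, 70.6 and 96.6 CPM without, so that control library 1 lay among the diabetic libraries. The log2 change was 0.60 (SE 0.20, adjusted p = 0.182). Without control library 1 it was 0.83 and Mt1 was called (adjusted p = 0.0321). Mt2 stood at 38.4, 21.98, 33.6, 40.3 and 37.0 CPM with STZ and at 32.9, 14.9, 9.97, 13.6 and 28.3 CPM without (log2 change 0.79, SE 0.29, adjusted p = 0.262). Control libraries 1 and 5 were the highest of their group for both genes. The control mean of Mt1, 86.6 ± 32.3 CPM (SD, n = 5), was the highest of the 4 control groups, which otherwise averaged 48.0 to 59.2 CPM. Differences between the models were not called by edgeR, and DESeq2 called the early one of Mt1 (0.91, adjusted p = 0.0494). By edgeR the type 2 minus type 1 difference of log2 changes was 0.86 (SE 0.28, adjusted p = 0.121) for Mt1 and 0.42 (SE 0.40, adjusted p = 0.70) for Mt2 at the early times, and 0.58 (SE 0.30, adjusted p = 0.339) for Mt1 and 2.24-fold (adjusted p = 0.183) for Mt2 at the late times. The late difference was called for no member by edgeR, with 2 members at an unadjusted p under 0.05 (15.1% of genes) and 0.438% of 18511 genes called. DESeq2 called 495 genes there.

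**Figure D1:**
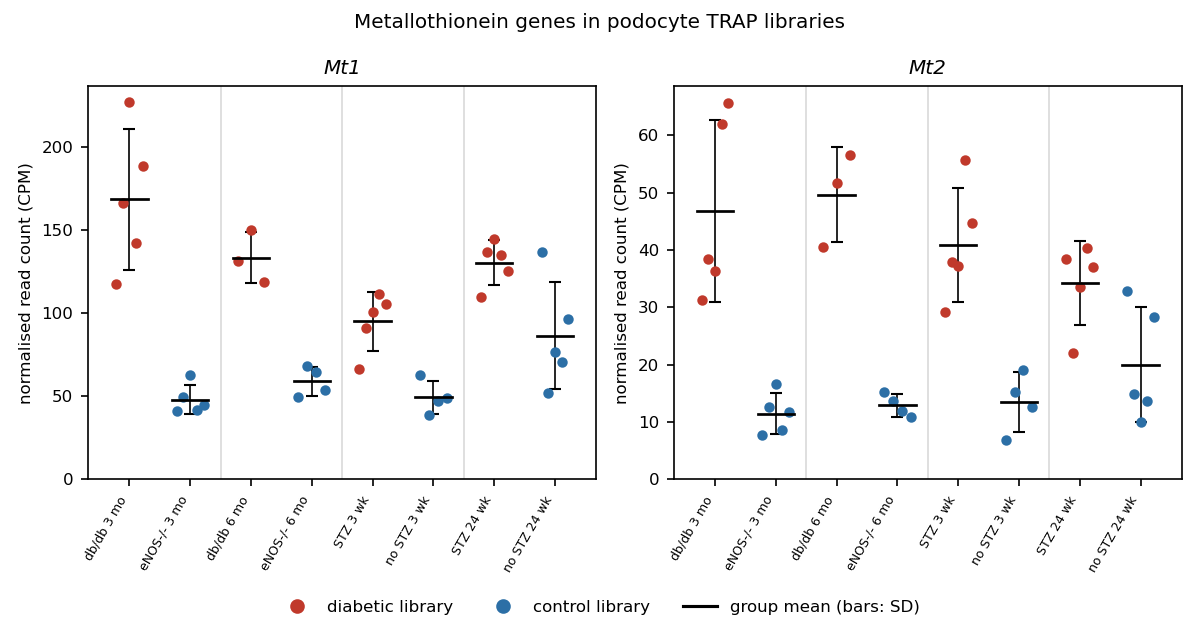
Normalised read counts (CPM, linear axis from 0) of Mt1 and Mt2 in each TRAP library, with the 8 groups in order of model and time and the diabetic group left of its control. Points are libraries, lines group means and bars SD. Diabetic and control libraries are apart at 3 months, 6 months and 3 weeks, and overlap at 24 weeks, where control library 1 reaches 137 CPM for Mt1.

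The ratio of Mt2 to Mt1 within a library averaged 0.288 ± 0.106 in diabetic and 0.235 ± 0.035 in control libraries of the type 2 model at 3 months (SD, n = 5 each), and 0.376 ± 0.088 (n = 3) against 0.223 ± 0.056 (n = 4) at 6 months. With STZ it was 0.429 ± 0.047 (n = 5), against 0.293 ± 0.141 (n = 4) without at 3 weeks, and 0.267 ± 0.073 against 0.229 ± 0.068 (n = 5 each) at 24 weeks. The ranges of diabetic and control ratios overlapped at 3 months, 3 weeks and 24 weeks, and at 6 months the lowest diabetic ratio was 0.307 and the highest control ratio 0.306. The other metallothionein genes were barely detected. Mt4 had no count in any TRAP library, where a count of 0 allows up to 3 counts per library, and group means of Mt3 were between 0.018 and 0.48 CPM.

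Markers of injured tubule were called higher in the comparisons where the metallothioneins were, and some of them also at 24 weeks. Of 6 such markers, which include Havcr1 and Lcn2, 6 were called higher at 3 months and 6 at 6 months in the type 2 model, 5 at 3 weeks and 2 at 24 weeks in the STZ model. Their summed level was 273 to 1234 CPM in eNOS-/- db/db and 76.6 to 103 CPM in eNOS-/- libraries at 3 months, and 790.0 to 1287 CPM against 109 to 162 CPM at 6 months. It was 809 to 1179 CPM with STZ and 131 to 192 CPM without at 3 weeks, and 388 to 904 CPM against 114 to 468 CPM at 24 weeks. Proximal tubule markers moved the other way, with 4, 9, 11 and 2 of 15 called lower in these comparisons and none higher. Parietal epithelial markers were called higher for 2, 6, 4 and 0 of 7 and mesangial and smooth muscle markers for 2, 4, 2 and 0 of 8. Macrophage markers were called higher for 0, 5, 5 and 0 of 10. Of all genes, 2.03%, 11.2%, 3.78% and 0.448% were called higher in these comparisons, and 1.96%, 11.7%, 2.72% and 0.448% lower. At 6 months the parietal markers summed to 239 to 441 CPM in diabetic and 109 to 151 CPM in control libraries, and the mesangial and smooth muscle markers to 188 to 711 CPM against 143 to 188 CPM. At 3 weeks these sums were 239.6 to 413 CPM against 133 to 204 CPM, and 203 to 559.7 CPM against 171 to 400.1 CPM. The part of these shifts in the metallothionein result was not tested. In the 5 TRAP libraries of eNOS-/- mice at 3 months, Mt1 ranged over 39.7 to 63.3 CPM and Mt2 over 7.78 to 16.9 CPM by plain CPM, against 123 CPM and 31.6 CPM in whole kidney.

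The members were chosen with earlier results of these data known, so the shares below are no test of enrichment. Of the 10 members, 4 were called at 3 months in the type 2 model, 3 higher and 1 lower, where 3.99% of all 17180 genes were called, 2.03% higher and 1.96% lower. At 6 months 6 were called, 4 higher and 2 lower, where 22.9% of all genes were called, 11.2% higher and 11.7% lower. After 3 weeks of STZ 6 of 10 were called, 5 higher and 1 lower, against 6.50% of 16279 genes, 3.78% higher and 2.72% lower. At 24 weeks none was called by edgeR, where 0.897% of genes were, 0.448% in each direction. There 8 of 10 had an unadjusted p under 0.05, as had 10.7% of all genes. The members with an unadjusted p under 0.05 were 8 (16.2% of genes), 6 (36.9%) and 7 (20.8%) at 3 months, 6 months and 3 weeks. DESeq2 called 1 member at 24 weeks, Srxn1. The median log2 change of the 10 members was 0.38, 0.39, 0.73 and 0.56 in the 4 comparisons in this order, while that of all genes was 0.036, -0.0096, 0.0024 and -0.013. Diabetic and control libraries did not overlap for 4 members at 3 months (6.76% of all genes), 3 of them higher (2.90%) and 1 lower (3.86%), and for 6 at 6 months (29.6%), 4 higher (13.8%) and 2 lower (15.8%). In the STZ model they did not overlap for 7 members at 3 weeks (8.19%), 6 higher (4.53%) and 1 lower (3.66%), and for 2 at 24 weeks (3.34%), both higher (1.66%, with 1.68% lower). Mt1, Mt2 and Srxn1 were called higher at 3 months, 6 months and 3 weeks, as were 71 of 15965 genes tested in both models (0.445%).

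**Figure D2:**
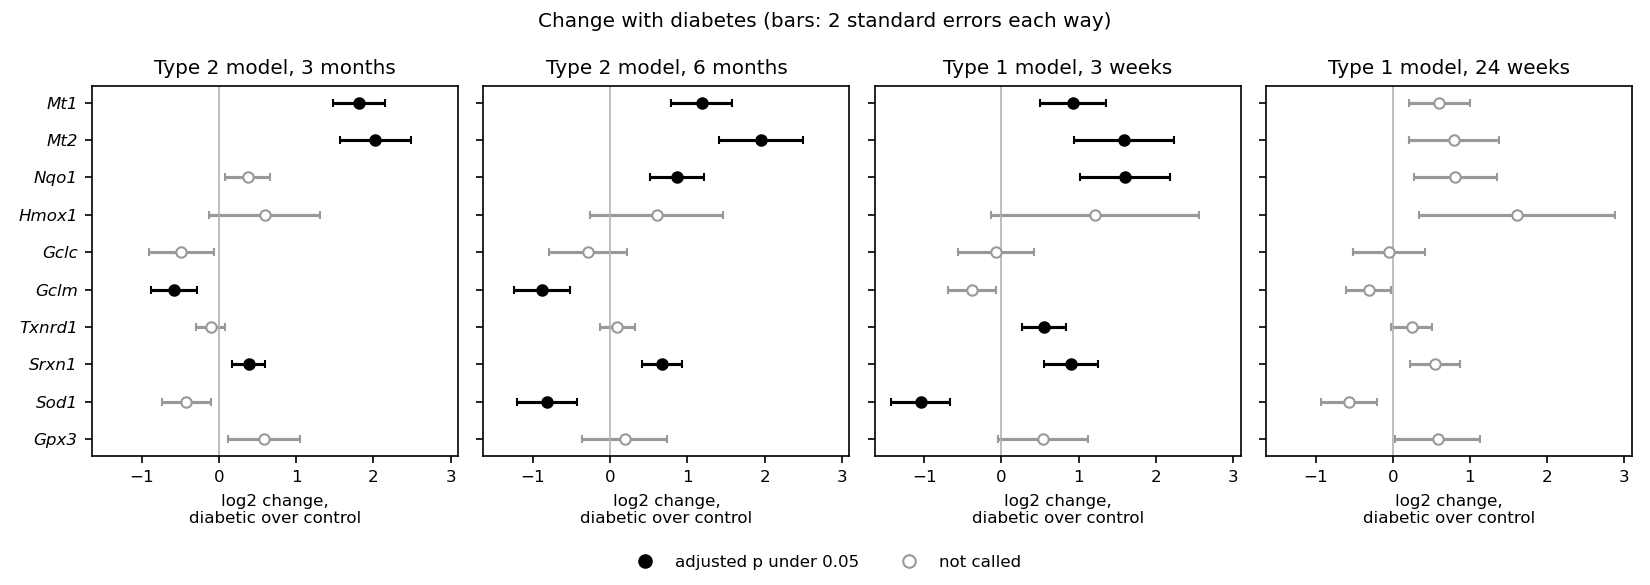
Log2 change of each member, diabetic over control, in the 4 comparisons, from the edgeR fits. Bars reach 2 standard errors each way, and filled points have an adjusted p under 0.05. Mt1 and Mt2 lie at 1.18 to 2.03 in the type 2 model, and no point is filled at 24 weeks.

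Among the NRF2-linked enzymes, Srxn1 was called higher in 3 of the 4 comparisons and Nqo1 in 2, after 3 weeks of STZ and at 6 months in the type 2 model. Nqo1 (ENSMUSG00000003849, chromosome 8, 107388225 to 107403206) encodes a quinone reductase and is a standard readout of NRF2. It stood at 90.8, 63.5, 54.7, 30.0 and 32.4 CPM in libraries 1 to 5 with 3 weeks of STZ, against 11.5, 21.6, 18.9 and 18.9 CPM without. The log2 change was 1.60 (SE 0.29, adjusted p = 0.00218), a 3.03-fold difference. The 3 highest values came from diabetic libraries 1, 2 and 3, which had the low podocyte sums given above and the highest macrophage marker sums of their group, 204 to 282 CPM against 46.5 to 103 CPM in controls. Without these 3 libraries the change was 0.82 and not called (adjusted p = 0.235). The part of cell makeup in the Nqo1 result was not tested.

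In the type 2 model at 6 months Nqo1 stood at 40.3, 28.8 and 37.6 CPM in eNOS-/- db/db libraries, against 20.5, 21.1, 18.2 and 18.7 CPM in eNOS-/- libraries, a log2 change of 0.87 (SE 0.18, adjusted p = 0.00253). At 3 months it stood at 24.5, 19.6, 28.5, 19.5 and 25.9 CPM in diabetic and 16.7, 16.4, 17.8, 19.9994 and 20.4 CPM in control libraries, and the groups overlapped (log2 change 0.37, SE 0.15, adjusted p = 0.188). After 24 weeks of STZ all diabetic libraries, at 35.0, 33.7, 54.5, 25.2 and 28.5 CPM, lay above the controls at 18.9, 20.1, 19.01, 19.95 and 24.0 CPM, yet the log2 change of 0.81 (SE 0.27) was not called (adjusted p = 0.19). The early change was 1.25 lower on the log2 scale in the type 2 model than in the STZ model (difference -1.25, SE 0.32, adjusted p = 0.0458), where 0.940% of 18511 genes were called and 0.567% called lower. That call was lost in 15 of 19 fits that left out 1 library, all but those without type 2 diabetic library 3, STZ-model control library 2 or diabetic library 4 or 5, and in 8 of 10 other settings. Without STZ-model diabetic libraries 1, 2 and 3 the difference was -0.43 (adjusted p = 0.615). The groups that make up this difference differ in genotype and in detected genes as well as in the cause of diabetes.

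Srxn1 (ENSMUSG00000032802, chromosome 2, 152105516 to 152111376) encodes sulfiredoxin, which restores over-oxidised peroxiredoxins. It stood at 69.3, 76.5, 72.2, 76.9 and 81.3 CPM in eNOS-/- db/db libraries at 3 months, against 61.5, 54.9, 51.8, 57.9 and 61.5 CPM in eNOS-/- libraries, without overlap. The log2 change was 0.39 (SE 0.11, adjusted p = 0.0444). This call was lost in 9 of 10 fits that left out 1 library, all but that without diabetic library 1, with adjusted p between 0.0505 and 0.116. It was also lost without diabetic libraries 4 and 5 together (0.34, adjusted p = 0.169) and in the edgeR fit of all 36 libraries (0.13). The same held with no filter on low counts and with replicate number as a block (adjusted p = 0.108 in both). At 6 months Srxn1 stood at 107, 101 and 82.6 CPM in diabetic libraries and 55.1, 59.7, 57.8 and 72.7 CPM in control libraries (log2 change 0.67, SE 0.13, adjusted p = 0.0017). With 3 weeks of STZ it stood at 112, 124, 114, 86.8 and 122 CPM, against 68.4, 58.1, 47.1 and 63.1 CPM without (0.90, SE 0.17, adjusted p = 0.00283). At 24 weeks the values were 87.7, 94.4, 132, 83.1 and 78.3 CPM with STZ and 68.4, 56.9, 55.5, 75.1 and 73.1 CPM without. The groups did not overlap there, but edgeR did not call the change (0.55, SE 0.16, adjusted p = 0.116), while DESeq2 (adjusted p = 0.0364) and the edgeR fit of all 36 libraries (adjusted p = 0.0291) did. Without diabetic libraries 1, 2 and 3, the 3-week change was 0.83 and not called (adjusted p = 0.102).

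Txnrd1 (ENSMUSG00000020250, chromosome 10, 82859206 to 82897724) encodes the cytosolic thioredoxin reductase. It was higher after 3 weeks of STZ, at 276, 232, 249, 229 and 273 CPM against 157, 203, 172 and 144 CPM without STZ, a log2 change of 0.56 (SE 0.14, adjusted p = 0.0213). Every diabetic library lay above every control library. The call was lost without control library 4 (adjusted p = 0.054), without diabetic libraries 1, 2 and 3 (0.188), with the replicate block (0.0667) and in the fit of only the compared groups (0.0646), with log2 changes between 0.51 and 0.57. In the type 2 model Txnrd1 was not called by edgeR, while limma on FPKM called it at 6 months (0.33, adjusted p = 0.0259). It was 123 to 140.2 CPM in diabetic and 129.9 to 149.5 CPM in control libraries at 3 months (log2 change -0.11, SE 0.09), and 145 to 157 CPM against 128 to 152 CPM at 6 months (0.094, SE 0.11). At 24 weeks of STZ it was 131 to 168 CPM, against 115 to 148 CPM without (0.25, SE 0.13, adjusted p = 0.552). The early change was 0.68 lower on the log2 scale in the type 2 than in the STZ model (difference -0.68, SE 0.16, adjusted p = 0.0243). It was not called without type 2 diabetic library 1 (adjusted p = 0.0508), STZ-model control library 1 (0.0555) or control library 4 (0.0576). The call was also lost with no filter on low counts (0.0688), with the replicate block (0.0949) and without STZ-model diabetic libraries 1, 2 and 3. Txnrd1 overlaps Gm38560 and Gm47073 on the opposite strand and Eid3 on its own strand.

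Hmox1 (ENSMUSG00000005413, chromosome 8, 75093591 to 75100596) encodes haem oxygenase and spread widely within groups and was called in no comparison by edgeR with all libraries. With 3 weeks of STZ it stood at 108, 50.6, 70.7, 66.1 and 270.4 CPM, against 57.5, 93.0, 19.4 and 20.3 CPM without. At 24 weeks it stood at 19.9, 198, 81.5, 25.2 and 30.1 CPM with STZ and 27.1, 14.0, 35.0, 19.5 and 21.3 CPM without. The log2 changes of 1.21 (SE 0.67) and 1.61 (SE 0.64) were the largest positive point estimates after Mt2 and Nqo1 at 3 weeks and of all 10 genes at 24 weeks, but neither was called (adjusted p = 0.326 and 0.317). In the type 2 model Hmox1 was at 33.9, 47.7, 23.4, 25.3 and 19.1 CPM in diabetic and 16.7 to 24.1 CPM in control libraries at 3 months (0.60, SE 0.36). At 6 months it was at 42.9, 31.5 and 95.5 CPM, against 28.3, 24.2, 19.4 and 77.6 CPM (0.60, SE 0.43). Without control library 4, the highest of its group, the change at 6 months was 1.25 and called (adjusted p = 0.0254).

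**Figure D3:**
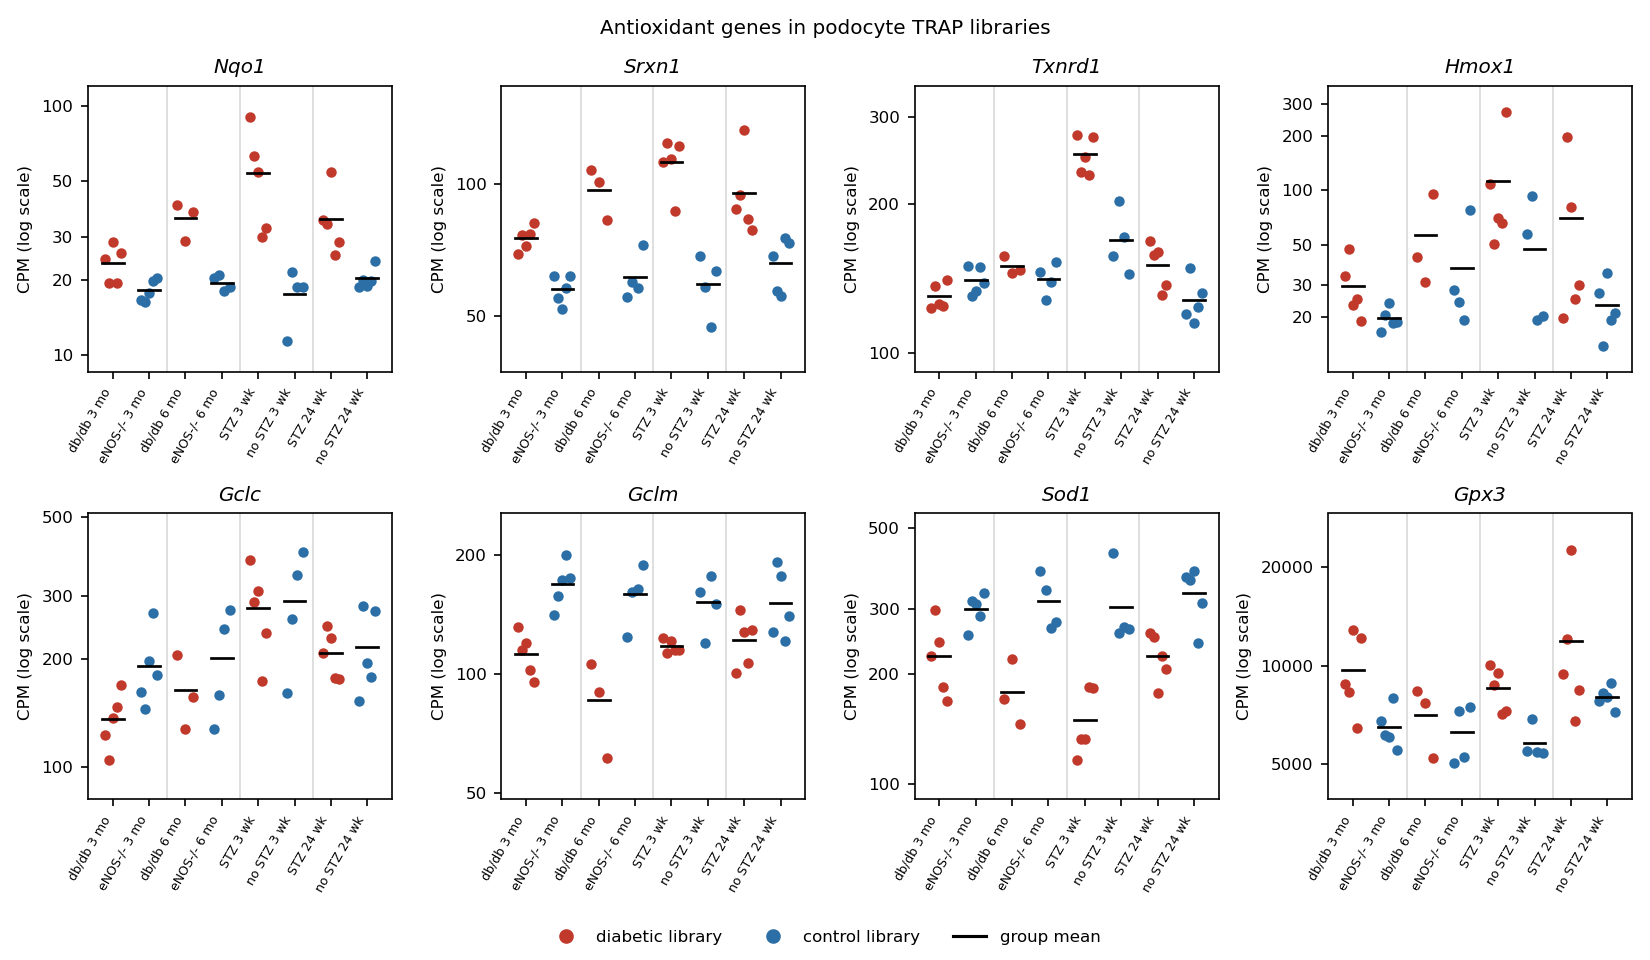
Normalised read counts (CPM, log axis) of the 8 antioxidant members in each TRAP library, with the diabetic group left of its control in each pair. Points are libraries and lines are group means. Nqo1 and Srxn1 lie higher in diabetic groups, Txnrd1 stands out at 229 to 276 CPM after 3 weeks of STZ, and Hmox1 spreads from 14.0 to 270.4 CPM.

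Neither gene of the first step of glutathione synthesis was called higher in any comparison, and Gclm was lower in the type 2 model. That step is carried out by glutamate-cysteine ligase, with the catalytic subunit Gclc and the modifier subunit Gclm, both NRF2 targets. Gclm (ENSMUSG00000028124, chromosome 3, 122245557 to 122270732) was lower in the type 2 model: 132, 115, 119.9, 103 and 95.5 CPM in eNOS-/- db/db libraries against 141, 158, 173, 201 and 176 CPM in eNOS-/- libraries at 3 months, a log2 change of -0.59 (SE 0.15, adjusted p = 0.0299). At 6 months it stood at 106, 90.5 and 61.6 CPM in diabetic and at 124, 161, 164 and 189 CPM in control libraries (-0.88, SE 0.18, adjusted p = 0.00295). The groups did not overlap at either age. The 3-month call was lost without control library 3, 4 or 5 or diabetic library 2, 4 or 5, with adjusted p between 0.0546 and 0.0927. It was also lost without diabetic libraries 4 and 5 together (-0.47, adjusted p = 0.178), by limma on FPKM (0.108) and with the replicate block (0.112). In the STZ model Gclm was at 114 to 124 CPM with STZ and 120.1 to 177 CPM without at 3 weeks (-0.38, SE 0.16, adjusted p = 0.152), and at 101 to 145 CPM against 121 to 192 CPM at 24 weeks (-0.31, SE 0.15, adjusted p = 0.443). Gclm overlaps Gm17494 on the opposite strand and the pseudogene Gm6061 on its own strand.

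Gclc (ENSMUSG00000032350, chromosome 9, 77754535 to 77794485) was called in no comparison. It ranged over 104 to 169 CPM in eNOS-/- db/db and 146 to 270.2 CPM in eNOS-/- libraries at 3 months (log2 change -0.49, SE 0.21, adjusted p = 0.239). At 6 months it was 128 to 206 CPM against 128 to 276 CPM (-0.29, SE 0.25). With STZ it was 174 to 379.6 CPM, against 161 to 399 CPM without at 3 weeks (-0.076, SE 0.25), and 177 to 248 CPM against 153 to 282 CPM at 24 weeks (-0.047, SE 0.23). Diabetic and control ranges overlapped in all 4 comparisons.

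Sod1 (ENSMUSG00000022982, chromosome 16, 90220742 to 90226322), the cytosolic copper and zinc superoxide dismutase, was lower after 3 weeks of STZ and at 6 months in the type 2 model. With 3 weeks of STZ it stood at 117, 133, 133, 184 and 183 CPM, against 428, 258, 268 and 265 CPM without, a log2 change of -1.04 (SE 0.19, adjusted p = 0.00207). In the type 2 model at 6 months it stood at 170.4, 219.7 and 146 CPM in diabetic and 382, 339, 267 and 277 CPM in control libraries (-0.82, SE 0.20, adjusted p = 0.00701). Neither pair of groups overlapped. At 3 months it stood at 224, 299.5, 244, 184 and 169 CPM in diabetic and 256, 315, 309.5, 288 and 332 CPM in control libraries, with library 2 of the diabetic group inside the control range (-0.42, SE 0.16, adjusted p = 0.171). At 24 weeks of STZ it stood at 259, 252, 177, 224 and 206 CPM, against 369, 360.1, 383, 243 and 312 CPM (-0.57, SE 0.18, adjusted p = 0.16). Without diabetic libraries 1, 2 and 3 the 3-week change was -0.73 and not called (adjusted p = 0.20). By limma on FPKM the 6-month change was -0.59 and not called (adjusted p = 0.0569). Sod1 overlaps Scaf4 on the opposite strand. Proximal tubule markers were lower in the same comparisons, with summed levels of 5280 to 9472 CPM with STZ and 12124 to 19248 CPM without at 3 weeks, and 3250 to 7790 CPM in eNOS-/- db/db against 11076 to 13600 CPM in eNOS-/- libraries at 6 months. Their part in the Sod1 result was not tested.

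Gpx3 (ENSMUSG00000018339, chromosome 11, 54902453 to 54910377) encodes the glutathione peroxidase secreted into plasma and was by far the most abundant member, taking 0.457 to 2.28% of all counts in a TRAP library. It stood at 8758, 8283, 12829.8, 6414 and 12171 CPM in eNOS-/- db/db and 6776, 6136, 6023, 7968 and 5519 CPM in eNOS-/- libraries at 3 months (log2 change 0.59, SE 0.23, adjusted p = 0.19). That change was not called by edgeR but was by DESeq2 (0.60, adjusted p = 0.031). At 6 months it was 8346, 7685 and 5197 CPM, against 5036, 7278, 5234 and 7471 CPM (0.19, SE 0.28). With 3 weeks of STZ it was 10062, 8695, 9464, 7092 and 7278 CPM, against 5480.0, 6874, 5429 and 5383 CPM without. Those groups did not overlap, but the change was not called (0.54, SE 0.29, adjusted p = 0.313). At 24 weeks diabetic library 3 reached 22641 CPM, the other diabetic libraries lay between 6744 and 12099 CPM, and the controls between 7203 and 8837 CPM (0.58, SE 0.28, adjusted p = 0.444). That library also had the lowest podocyte marker sum of its group, 4983 CPM.

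Compared per gene length by FPKM, the members spanned a wide range in the 18 control libraries. Gpx3 had a median of 3614 FPKM, Sod1 of 478 FPKM and Mt1 of 97.6 FPKM. Gclc (57.4 FPKM) and Txnrd1 (39.3 FPKM) followed, then Gclm (24.3), Mt2 (22.9) and Srxn1 (19.9), and Nqo1 (12.0) and Hmox1 (9.81) were lowest. In this order the control ranges of Mt1 and Gclc overlapped, as did those of Gclc and Txnrd1, of Gclm, Mt2 and Srxn1, and of Nqo1 and Hmox1. Mt2 (10.9 to 59.0 FPKM) and Hmox1 (5.51 to 38.6 FPKM) had wide ranges that reached across several neighbours. The ranges of the top 3 were apart: 2518 to 5230 FPKM for Gpx3, 358 to 591 FPKM for Sod1 and 63.9 to 253 FPKM for Mt1.

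Most members were lower in podocyte TRAP RNA than in whole kidney of the same genotype and age. Ratios here use plain CPM plus 0.5, and the single kidney library allows no test. That library is total RNA and the TRAP libraries are labelled polyA RNA, so effects of RNA type and of cell type cannot be told apart. Nqo1 was at 18.2 ± 1.45 CPM in TRAP (SD, n = 5) and at 56.3 CPM in kidney (95% Poisson interval 53.5 to 59.1), 3.03 times lower in TRAP. Mt2 was 2.68 times lower, Mt1 2.54, Hmox1 2.25, Gpx3 2.15, Gclm 1.77 and Sod1 1.13 times lower, and for these genes each TRAP library lay below kidney, as for 32.1% of all 17180 genes. Gpx3 stood at 6463 ± 807 CPM in TRAP (SD, n = 5) and at 13911 CPM in kidney. Gclc was 1.21 times lower, with kidney inside the TRAP range. Txnrd1 (139.8 ± 6.80 CPM in TRAP, 138 CPM in kidney) and Srxn1 (57.4 ± 3.95 CPM in TRAP, 57.3 CPM in kidney) had ratios of 1.02 and 1.00, so 2 of 10 members had a ratio above 1, against 49.4% of all genes, and none lay above kidney in each library, as 30.6% of genes did. Kidney lay inside the TRAP range for both. The interval covers counting error only.

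**Figure D4:**
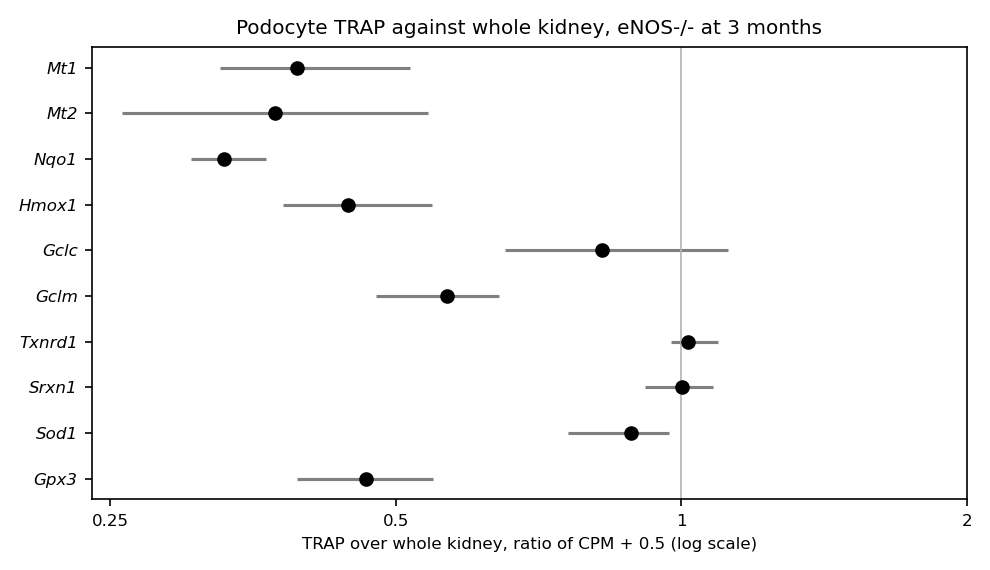
Ratio of CPM + 0.5 in TRAP to that in the whole-kidney library (log axis) for each member in eNOS-/- mice at 3 months. Points are the mean of 5 TRAP libraries and bars run from the lowest to the highest library. Txnrd1 and Srxn1 lie at 1, and Nqo1 is lowest at 0.33.

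Other targets of NRF2 were called higher in larger number after 3 weeks of STZ than in the other comparisons. This list too was chosen with earlier results of these data known, so its shares are no test of enrichment. Of 28 further target genes, 27 were tested in the STZ model: 10 were called higher and 1 lower at 3 weeks, where 6.50% of all genes were called, with a median log2 change of 0.69, against 0.0024 for all genes. They included the carbonyl reductase Cbr1, at 110.5 ± 45.8 CPM with STZ and 20.7 ± 4.68 CPM without (SD, n = 5 and 4; log2 change 2.41, SE 0.42, adjusted p = 0.00172), and Pgd of the pentose phosphate pathway, at 190.1 ± 55.6 CPM against 82.3 ± 24.0 CPM (1.19, SE 0.21, adjusted p = 0.00172). Trib3, a pseudokinase gene induced by stress, had 23 to 63 counts in the 5 diabetic libraries and none in the 4 controls, at least 9.45-fold higher against a floor of 3 counts per library. Without diabetic libraries 1, 2 and 3, a choice made after seeing the data, 1 of the 27 was called, Trib3, and the median was 0.35, in the fit that called 94 genes in all. At 24 weeks 1 was called higher, Cbr1 (2.17, SE 0.38, adjusted p = 0.00523), and 1 lower, where 0.897% of all genes were called, with a median of 0.16. In the type 2 model 3 were called higher and 1 lower at 3 months (median -0.00097) and 4 higher and 5 lower at 6 months (median -0.054), where 3.99% and 22.9% of all genes were called. Abcc4, an efflux pump, was higher at both ages (1.19 and 1.25) and Akr1b8, an aldo-keto reductase, likewise (1.72 and 2.23).

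The malic enzyme Me1, which supplies NADPH, was lower in all 4 comparisons. It averaged 137 ± 15.8 CPM in eNOS-/- db/db and 269.8 ± 53.0 CPM in eNOS-/- libraries at 3 months (SD, n = 5 each; log2 change -0.97, adjusted p = 0.00048), and 109.5 ± 25.9 against 233 ± 23.8 CPM at 6 months (n = 3 and 4; -1.08, adjusted p = 0.000741). With STZ it averaged 137 ± 33.6 CPM, against 301 ± 77.6 CPM without at 3 weeks (n = 5 and 4; -1.15, adjusted p = 0.00522), and 111 ± 32.9 against 236 ± 66.4 CPM at 24 weeks (n = 5 each; -1.09, adjusted p = 0.0205). Pgd was also higher at 6 months in the type 2 model (0.90, adjusted p = 0.00102). By the difference of early changes, 5 of the 28 targets were called lower in the type 2 than in the STZ model, among them Cbr1 (-1.97, SE 0.43, adjusted p = 0.0196) and Pgd (-1.21, SE 0.25, adjusted p = 0.0128). Without STZ-model diabetic libraries 1, 2 and 3 none of the 28 was called by edgeR, with a median of -0.23, against -0.52 with them, and 33 genes were called in all, against 174.

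**Figure D5:**
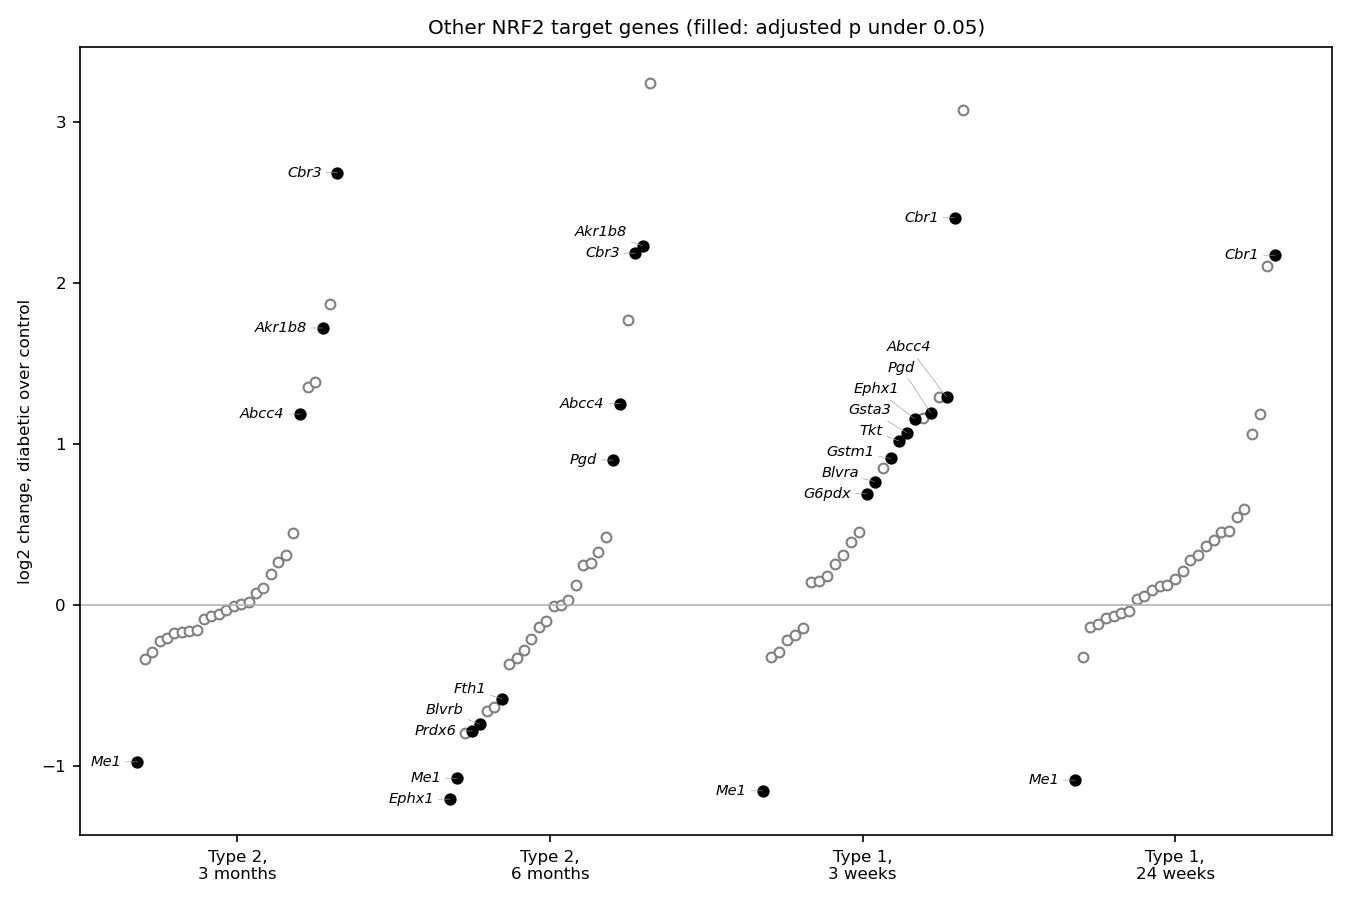
Log2 change, diabetic over control, of the other NRF2 target genes in each comparison, sorted within it. Filled, named points have an adjusted p under 0.05 and open points do not. Trib3 is left out at 3 weeks, where its controls had no count. At 3 weeks of STZ 9 of the points above 0 are filled, and Me1 lies near -1 in each comparison.

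Of 9 genes of the NRF2 switch itself, Nfe2l2 was higher after 3 weeks of STZ, at 152 ± 37.2 CPM against 93.1 ± 22.1 CPM without (SD, n = 5 and 4; log2 change 0.69, SE 0.20, adjusted p = 0.041), and was not called in the other 3 comparisons or without diabetic libraries 1, 2 and 3. In the type 2 model the small MAF gene Maff was higher, by 1.49 at 3 months (SE 0.28, adjusted p = 0.00308) and 1.88 at 6 months (SE 0.33, adjusted p = 0.000893). The NRF2 competitor Bach1 was higher (0.53) and Cul3, the scaffold of the ligase that degrades NRF2, lower (-0.58) at 6 months. None of the 9 was called at 24 weeks by edgeR. At 3 months and at 3 weeks 1 of the 9 was called, where 3.99% and 6.50% of all genes were. At 6 months 2 were called higher and 1 lower, where 11.2% of all genes were called higher and 11.7% lower.

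Of 20 genes that handle metals, 17 were tested in each model. None was called at 3 months or at 24 weeks by edgeR. At 6 months 2 were called higher and 1 lower, where 22.9% of all genes were called. After 3 weeks of STZ 2 were called higher, where 3.78% of all genes were. At 6 months the copper-binding ferroxidase Cp (1.82, SE 0.42, adjusted p = 0.00651) and the iron exporter Slc40a1 (0.67, adjusted p = 0.0395) were higher, and the zinc and manganese importer Slc39a8 was lower, at 9.66 ± 5.71 CPM in diabetic and 26.9 ± 4.08 CPM in control libraries (SD, n = 3 and 4; -1.44, adjusted p = 0.00386). After 3 weeks of STZ Cp (2.11, SE 0.32, adjusted p = 0.000546) and the copper pump Atp7a (0.59, adjusted p = 0.0137) were higher, and neither was called without diabetic libraries 1, 2 and 3. Mtf1 and the zinc exporter Slc30a1, a classical MTF1 target, were looked at after the values were seen. Neither was called in any of the 4 comparisons, with log2 changes of Mtf1 between -0.38 and 0.11 and of Slc30a1 between -0.23 and 0.19.

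Of 9 genes responsive to glucocorticoids, the kinase gene Sgk1 was higher at 3 months (1.36, SE 0.21, adjusted p = 0.000517) and 6 months (1.26, SE 0.25, adjusted p = 0.00201) and after 24 weeks of STZ (1.12, SE 0.25, adjusted p = 0.0296). At 6 months Cebpd was higher (1.34) and Per1 lower (-1.09). After 3 weeks of STZ none was called higher, and Errfi1 (-1.30, adjusted p = 0.0296) and Klf9 (adjusted p = 0.0375) were lower, calls that were also lost without diabetic libraries 1, 2 and 3. Without type 2 diabetic libraries 4 and 5 at 3 months, Klf9 and Errfi1 were called lower there. With all libraries, 1 of the 9 was called at 3 months, 2 at 3 weeks and 1 at 24 weeks. Of all genes, 3.99%, 6.50% and 0.897% were called in these comparisons. At 6 months 2 of the 9 were called higher and 1 lower, against 11.2% and 11.7% of all genes. Of 22 other antioxidant enzymes 21 were matched by symbol and tested. They held no called gene at 3 months and at 24 weeks by edgeR. At 6 months 2 were higher and 5 lower, where 11.2% of all genes were called higher and 11.7% lower, with the mitochondrial peroxiredoxin Prdx3 at 27.8 ± 16.2 CPM in diabetic and 72.9 ± 13.3 CPM in control libraries (SD, n = 3 and 4; log2 change -1.37, adjusted p = 0.00827) and catalase, Cat, at -1.12. At 3 weeks Gpx1 was lower (-0.72, SE 0.17, adjusted p = 0.0135), but not called without diabetic libraries 1, 2 and 3. In the 6-month diabetic libraries all 10 podocyte markers were called lower and 5 of 10 macrophage markers higher, and the part of these shifts in the 6-month results was not tested.

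The genes whose 8 group means were most like those of Mt1 were found among 9334 other genes with a mean of at least 10 CPM, by the root mean square difference of centred log2 values. They were the galectin Lgals1 (0.23), Zfp385a (0.24) and the channel Trpm3 (0.24), while Mt2 stood at 0.33. For Gpx3 they were Cyr61 (0.13), Hoxb7 (0.14) and Hexa (0.14).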

How the data were processed

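Raw counts and FPKM of 32108 genes in 37 libraries were deposited by the authors. Per the submitters' processing notes, cutadapt 1.16, STAR, FastQC and featureCounts 1.15.2 were used. The notes name mm9, but 99.98% of 31871 genes matched by identifier overlapped their GRCm38 position. The deposited FPKM equalled counts per kilobase of exon and library depth.

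Members and gene lists were chosen with earlier results of these data known. Models on the counts used edgeR 4.0.16 under R 4.3.3 (TMM, default filter by group, robust quasi-likelihood F test, Benjamini-Hochberg adjustment over all genes, threshold 0.05). One fit held 17 type 2 libraries, one held 19 type 1 libraries and one, for differences between models, all 36. The steps were tested on simulated data. From each list the text names up to 3 called genes with the lowest p per comparison, and others are said to be chosen later. DESeq2 1.42.0, limma 3.58.1 on log2(FPKM + 0.1), other size factors, filters and sets of libraries served as alternatives. Depth limits low genes. The kidney intervals cover counting error only, since they rest on a single library. No molecular identifiers are mentioned in the labels. No pair of libraries of one group agreed within sampling noise (lowest chi-square per degree of freedom 15.1 over 65 pairs). Same-numbered libraries did not deviate together (correlations -0.0806 to 0.103). The genes most like Nqo1 in pattern are not reported here. Figures were drawn with matplotlib 3.10.9.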

Additional observations from a re-analysis of the deposited data

Results flagged for a closer look

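In 5 of 70 gene-by-group sets of 4 or 5 libraries, 1 library lay apart from the rest by Dixon's test, which chance alone gives in about 1 of 20 sets. Nqo1 was 24.0 CPM in control library 5 at 24 weeks, against 18.9 to 20.1 CPM in the others. Hmox1 was 77.6 CPM in eNOS-/- library 4 at 6 months, against 19.4 to 28.3 CPM, and 270.4 CPM in diabetic library 5 at 3 weeks of STZ, against 50.6 to 108 CPM. Sod1 was 428 CPM in control library 1 at 3 weeks, against 258 to 268 CPM, and Gpx3 was 6874 CPM in control library 2, against 5383 to 5480.0 CPM. The early changes of Nqo1 (difference of log2 changes -1.25) and Txnrd1 (-0.68), type 2 minus type 1, differed between the models by edgeR's test of the difference. The Nqo1 call was lost in 23 of 29 alternatives and the Txnrd1 call in 6 of 29. Neither was called without STZ-model diabetic libraries 1, 2 and 3.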

How the results depend on the processing

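Of 18 called member results, 289 of 348 alternative values were called in the same direction, 59 were no longer called and none reversed. Mt1 and Mt2 stayed called in each alternative at 3 months, 6 months and 3 weeks. Among 62 results not called, 7 of 1472 alternative values were called and 74 changed sign. Low-count genes and groups of 3 to 5 libraries limit what could be called.

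DESeq2 called 1246 genes at 3 months, 1735 at 3 weeks, 429 at 24 weeks with 1 member, 577 and 64 for late minus early changes in the type 2 and type 1 models, and 462 and 495 for early and late differences between models. The fit of all 36 libraries called 1636 genes at 3 weeks, 271 at 24 weeks with 1 member and 14 for type 1 late minus early, and type 2 late minus early Hmox1 was -0.0091. Fits of only the compared groups called 2326 genes at 6 months, 599 at 3 weeks and 1 member for the early difference, as did RLE and upper quartile size factors. With no filter, genes called were 3 for type 2 late minus early, 99 with 0 members for the early difference and 22 for the late one, with late minus early values of -0.033 for Hmox1 (type 2) and -0.012 for Gclc (type 1). On log2(FPKM + 0.1), limma called 4 genes each for late minus early in both models and 103 genes with 1 member for the early difference. There Gclc was 0.081 at 3 weeks, Mt2 0.079 in type 2 late minus early, Hmox1 -0.28, Gclc -0.083, Gclm -0.037 and Gpx3 -0.21 in type 1 late minus early, Gpx3 -0.029 in the early and Txnrd1 0.068 in the late difference. The cause of these shifts was not tested.

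The replicate block called 2 members and 403 genes at 3 months, 2575 genes at 6 months, 82 at 24 weeks, 1 for type 1 late minus early, 0 members for the early difference and 3 genes for the late one. It gave type 1 late minus early values of -0.019 for Gclc and -0.16 for Gpx3, -0.057 for Gpx3 in the early and 0.075 for Hmox1 in the late difference. Numbers did not pair libraries. Without type 2 diabetic libraries 4 and 5 at 3 months, 2 members and 418 genes were called at 3 months, 2090 genes for type 2 late minus early (Mt2 0.33, Hmox1 -0.22) and 1 member for the early difference. Without STZ libraries 1, 2 and 3 at 3 weeks, chosen after seeing the data, 2 members and 94 genes were called at 3 weeks, and 0 members and 33 genes for the early difference (Gclc 0.025), and type 1 late minus early Hmox1 was -0.22.

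Leaving out each library in turn gave 2 to 4 members and 404 to 737 genes at 3 months, 6 to 7 and 1932 to 5350 at 6 months, 5 to 6 and 611 to 1350 at 3 weeks. At 24 weeks it gave 0 to 1 members and 67 to 262 genes. The 3-month count of members was 2 without control library 3, 4 or 5 or diabetic library 2, 4 or 5. Genes called were 404 and 451 at 3 months without control libraries 4 and 5, 1932 at 6 months without diabetic library 3, 695 at 3 weeks without control library 1, 688, 654 and 611 without diabetic libraries 1, 2 and 3, and 262 at 24 weeks without diabetic library 4. For late minus early, no member was called, and 0 to 1911 genes (type 2, 1911 without 6-month diabetic library 2 and 259 without 3-month diabetic library 4) and 0 to 3 genes (type 1) were. The early difference gave 0 to 2 members and 75 to 243 genes, the late one 0 members and 4 to 549 genes (549 without 6-month diabetic library 2). Members with a TRAP to kidney ratio above 1 were 0 without control library 1 and 1 without control library 5, a range of 0 to 2. Ranges that crossed 0 were those of Gclc at 24 weeks (-0.15 to 0.077) and 3 weeks (-0.25 to 0.14), of Hmox1 at 6 months (-0.0061 to 1.25), of type 1 late minus early for Gclc (-0.18 to 0.22), Gclm (-0.021 to 0.17), Gpx3 (-0.37 to 0.18) and Hmox1 (-0.49 to 0.98), of type 2 late minus early for Gclc (-0.014 to 0.39), Hmox1 (-0.60 to 0.65) and Mt2 (-0.25 to 0.084), of Gpx3 in the early difference (-0.098 to 0.15), of Nqo1 in the late one (-0.064 to 0.28), and of the log2 TRAP to kidney ratios of Srxn1 (-0.023 to 0.036) and Txnrd1 (-0.0047 to 0.037).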
